A study of Mus musculus with 6 samples.

Results

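The 8 microRNAs (miRNAs) described here are 7 that were dim on the arrays of untreated fat cells and passed a detection rule only on those of fat cells grown with interleukin-6 (IL-6), and a brighter partner arm that was detected on every array. They were mmu-miR-5117-5p and mmu-miR-5117-3p, mmu-miR-681, mmu-miR-3067-3p, mmu-miR-3572-5p, mmu-miR-6354, mmu-miR-6394 and mmu-miR-6418-5p (the mouse prefix mmu is left out hereafter), which are 8 of the 1247 mouse miRNAs on the array, with 20 of its 3105 mouse probes and 320 of its 49880 mouse spots. A set of 7 was chosen by detection: a probe was taken as detected if the scanner software marked a share of 0.5 or more of its usable spots as "well above background", and each of the 7 had such a probe on both IL-6 arrays but on none of the controls, as did 10 of the 1247 miRNAs in all (0.802%). miR-5117-3p was added as the opposite arm of miR-5117 and did not have to meet that criterion. Since detection in these same samples chose the 7, their IL-6 and control values are given as a description and without a test.

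The arrays came from mouse 3T3-L1 cells, an embryonic fibroblast line that becomes fat-storing when induced with hormones, taken on day 8 of differentiation. The IL-6 group (2 arrays) received recombinant IL-6 at 1 ng/ml from the start of induction, with fresh medium each 24 h, and the control group (4 arrays) was not treated. All 6 samples had been induced with isobutyl-methylxanthine, dexamethasone, insulin and rosiglitazone in fetal bovine serum, so that every value refers to IL-6 on top of that cocktail in a single cell line. The labels do not say whether replicate arrays were hybridised with RNA of separate cultures, and the spread between them may therefore be technical.

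A miRNA is cut from a hairpin precursor whose 5p and 3p arms can each give a mature strand, and usually 1 of them accumulates. The mature strand guides Argonaute to messenger RNAs chiefly through its seed, bases 2 to 8, so miRNAs that share a seed share many predicted targets. miRNAs such as miR-143 and miR-378a are abundant in fat cells, whereas no function in fat cells is stated here for any of the 8. IL-6 is a cytokine released by contracting muscle, immune cells and fat tissue, and signals through gp130 and STAT3.

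The mature sequences below are shown because the seed decides whether a member could share targets with brighter miRNAs, and because the array reads only the 3′ part of the strand. They are RefSeq sequences (GRCm38.p6), matched by name for 6 of the 8, written 5′ to 3′ with the seed in capitals.
miR-681: cAGCCUCGcuggcaggcagcu
miR-6354: uGCCCUGGggaucaggucucu
miR-6418-5p: uCAGGGGAagggaagagaugc
miR-6394: uCCCUGAGuggggccaggucu
miR-3572-5p: uGGGGAACagggcaagguggac
miR-3067-3p: cCAAGCGGcugcccugggagagg

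The 6 seeds all differed. Among the 1017 array miRNAs with a RefSeq sequence, 5 of the 6 seeds occurred in no other miRNA. The seed of miR-6394, CCCUGAG, was also that of miR-125a-5p, miR-125b-5p, miR-351-5p and miR-6367. miR-125a-5p and miR-125b-5p belong to a conserved family related to lin-4, a worm miRNA that times development. Their sequences are shown to compare them with miR-6394 beyond the seed.
miR-125a-5p: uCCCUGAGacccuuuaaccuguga
miR-125b-5p: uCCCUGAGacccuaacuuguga
miR-351-5p: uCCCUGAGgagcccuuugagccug

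miR-6394 shared its first 8 bases, UCCCUGAG, with these 3 miRNAs and no longer stretch, while its probes pair with its other end. The 3 miRNAs were detected on all 6 arrays and did not pass limma's test. The scaled log2 signal of miR-125b-5p averaged 11.18 ± 0.03 on IL-6 arrays (SD, n = 2) and 11.29 ± 0.14 on control arrays (SD, n = 4), a difference of -0.10 (limma adjusted p = 0.600). miR-351-5p averaged 3.80 ± 0.03 on IL-6 arrays and 3.73 ± 0.20 on control arrays (limma adjusted p = 0.781), and miR-125a-5p differed by -0.0005 (limma adjusted p = 1). miR-6367 was detected on 0 of the 6 arrays.

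The 6 members with a RefSeq sequence were rich in G and C, and the miR-5117 probes were not. The GC content of the 6 ran between 57.1% and 73.9%, against a median of 50% and quartiles of 41.7% and 59.1% over the 1017 sequences, of which 29.1% reached the lowest member's value. A run of 4 G, searched as GGGG in the mature strand, was present in 4 of the 6 members (miR-3572-5p, miR-6354, miR-6394 and miR-6418-5p) and in 84 of the 1017 (8.26%). The probes of miR-5117-5p and miR-5117-3p had a GC content of 22.7% to 31.3%, and the detected 23-base probe of miR-5117-5p had 26.1%. These features were looked at after the values were known and are descriptions.

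In the genome the members lay apart from each other, apart from the arms of miR-5117. By RefSeq positions (GRCm38.p6), miR-681 lies at chr12:69763923-69763943 on the minus strand within Cdkl1, which encodes a protein kinase, and miR-3067-3p at chr12:81166201-81166223 on the plus strand within Smoc1, which encodes a secreted calcium-binding protein. miR-6418-5p lies at chr5:137529551-137529571 on the minus strand within Gnb2, which encodes a G protein beta subunit. miR-6394 is at chr7:96305740-96305760 on the plus strand within Tenm4, a teneurin gene, and miR-3572-5p at chr7:3655970-3655991 on the plus strand within Cnot3, which encodes a subunit of the CCR4-NOT deadenylase. miR-6354 lies at chr1:169019041-169019061 on the minus strand, within no gene of the annotation, with the nearest coding gene, Nuf2, 478873 bp away. The miR-5117 probes map to chr1:161037360-161037382 (5p) and chr1:161037417-161037434 (3p) in the files' own annotation, within Gas5, a long non-coding RNA gene that hosts small nucleolar RNAs. Whether these positions are exonic or intronic was not analysed here, and host transcripts were not measured by the array.

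Each miRNA was read by 2 or 4 DNA probes that pair with its 3′ end and differ in length by single bases. For all 14 probes checked against a RefSeq sequence this pairing held. Only 1 length was detected on both IL-6 arrays for each of the 7 chosen miRNAs. The probes of miR-5117-5p and miR-681 are shown as examples. They are written 5′ to 3′, and the capital marks the base that the next shorter probe lacks.
miR-5117-5p, 22 bases: taactttattgatcatcactaa
miR-5117-5p, 23 bases: taactttattgatcatcactaaC
miR-681, 10 bases: agctgcctgc
miR-681, 11 bases: agctgcctgcC
miR-681, 12 bases: agctgcctgccA
miR-681, 13 bases: agctgcctgccaG

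The 23-base probe of miR-5117-5p was well above background at 18 of 18 and 20 of 20 usable spots on IL-6 arrays 1 and 2. On control arrays 1 to 4 it was so at 0 of 19, 0 of 19, 2 of 20 and 9 of 20 spots. The 22-base probe, 1 base shorter, reached that mark at no usable spot on any of the 6 arrays. For miR-681 only the 11-base probe was detected, at 10 of 10 spots on each IL-6 array, against 3, 4, 2 and 3 of 10 spots on control arrays 1 to 4. Its longer 12-base and 13-base probes had 1 spot above background in all, on IL-6 array 1, so the detected length was neither the shortest nor the longest.

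The other 5 chosen miRNAs also rested on a single probe each. miR-6354 was read at 17 of 20 and 12 of 20 spots of its 16-base probe on the IL-6 arrays, against 0 of 19, 1 of 20, 0 of 20 and 1 of 16 on the controls. miR-6418-5p had 17 of 17 and 19 of 20 spots of its 16-base probe above background on the IL-6 arrays, against 2 of 19, 4 of 19, 1 of 20 and 1 of 20 on the controls. miR-6394 followed with 15 of 17 and 16 of 20 spots of its 14-base probe on the IL-6 arrays, against 0 of 17, 0 of 18, 0 of 20 and 2 of 20 on the controls. In these 3 miRNAs the control spots above background were few on every array.

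The remaining pair sat closest to the limit. miR-3572-5p had 12 of 20 and 13 of 18 spots of its 14-base probe above background on the IL-6 arrays, against 0, 2, 2 and 6 of 20 on the controls. miR-3067-3p had 11 of 20 spots of its 12-base probe above background on each IL-6 array, against 0 of 18, 4 of 18, 0 of 19 and 4 of 19 on the controls. Of the 16 probes of the 7 miRNAs, 7 were detected on both IL-6 arrays and 9 were not.

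**Figure D1:**
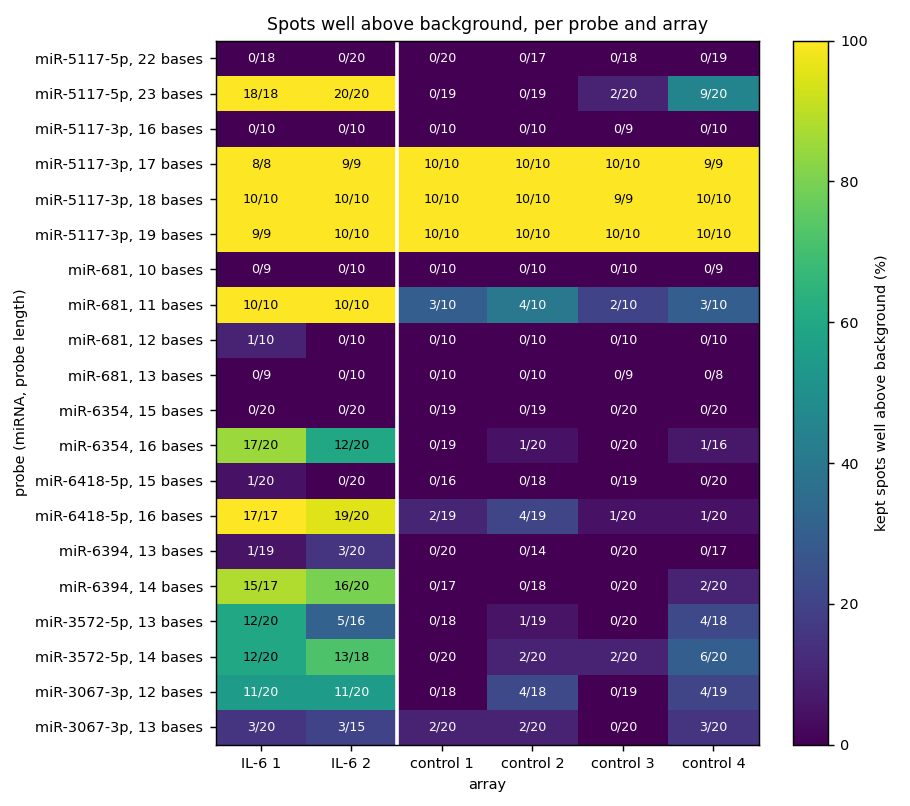
Usable spots well above background for each of the 20 probes (rows, named by miRNA and probe length in bases) on each array (columns, IL-6 left of control), coloured by percent and labelled as spots above over spots kept. Each of the 7 chosen miRNAs has a single probe past a share of 0.5 on both IL-6 arrays, and miR-5117-3p has 3 probes at 100% on all 6 arrays.

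miR-5117-3p behaved differently from the opposite arm. Its 17-, 18- and 19-base probes were well above background at every usable spot of all 6 arrays, and its 16-base probe at none. The 19-base probe had a mean signal of 214 and 206 on the IL-6 arrays, against 210, 228, 133 and 210 on control arrays 1 to 4, before scaling. After scaling for array brightness these means were 174 and 199 on the IL-6 arrays, against 217, 206, 191 and 218 on the controls, and the groups overlapped. Averaged over its probes, miR-5117-3p had a scaled log2 signal of 5.96 ± 0.13 on IL-6 arrays (SD, n = 2) and 6.12 ± 0.07 on control arrays (SD, n = 4). The difference of -0.16 (SE 0.09) did not pass limma's test (adjusted p = 0.302 over 299 miRNAs), and its sign depended on scaling: without it the difference was 0.13 (adjusted p = 0.825).

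Spot by spot, miR-5117-5p and miR-681 stood clearest of their controls. The spots of a probe are repeat copies within an array, so counts of spots add no replicates. Before scaling, the 23-base probe of miR-5117-5p had mean signals of 29.7 and 22.8 on the IL-6 arrays, against 8.01, 9.06, 7.24 and 12.1 on control arrays 1 to 4. Of its 38 IL-6 spots, 37 were brighter than its brightest control spot, and 35 were after scaling. The 11-base probe of miR-681 had mean signals of 26.2 and 28.0 on the IL-6 arrays, against 11.1, 10.9, 9.73 and 12.0 on the controls. All 20 of its IL-6 spots exceeded its brightest control spot before scaling, and 17 did so after.

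Before scaling, the array means of the leading probe did not overlap in any of the 7 chosen miRNAs, but in 3 others many spots did. miR-6354 had mean signals of 15.9 and 14.2 on the IL-6 arrays, against 5.17, 7.61, 4.58 and 10.7 on the controls, and 25 of 40 IL-6 spots exceeded the brightest control spot before scaling and 14 after. miR-6418-5p had 16.9 and 19.5 on the IL-6 arrays, against 10.8, 9.72, 7.08 and 10.3 on the controls, with 20 of 37 such spots before scaling and 11 after. For miR-6394 the means were 14.5 and 15.5 on the IL-6 arrays, against 7.46, 6.10, 6.38 and 9.63 on the controls, with 23 of 37 before scaling and 10 after. In each of the 3, as in the other chosen miRNAs, fewer IL-6 spots stood clear of the controls once array brightness was taken into account.

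For miR-3572-5p the means were 14.5 and 13.8 on the IL-6 arrays, against 8.19, 8.39, 6.91 and 10.9 on the controls, and 15 of 38 IL-6 spots exceeded the brightest control spot before scaling and 0 after. miR-3067-3p had 12.5 and 12.7 on the IL-6 arrays, against 9.14, 10.1, 5.44 and 11.3 on the controls, with 10 of 40 before scaling and 4 after. Control array 4 was the brightest control for 6 of the 7 leading probes before scaling.

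**Figure D2:**
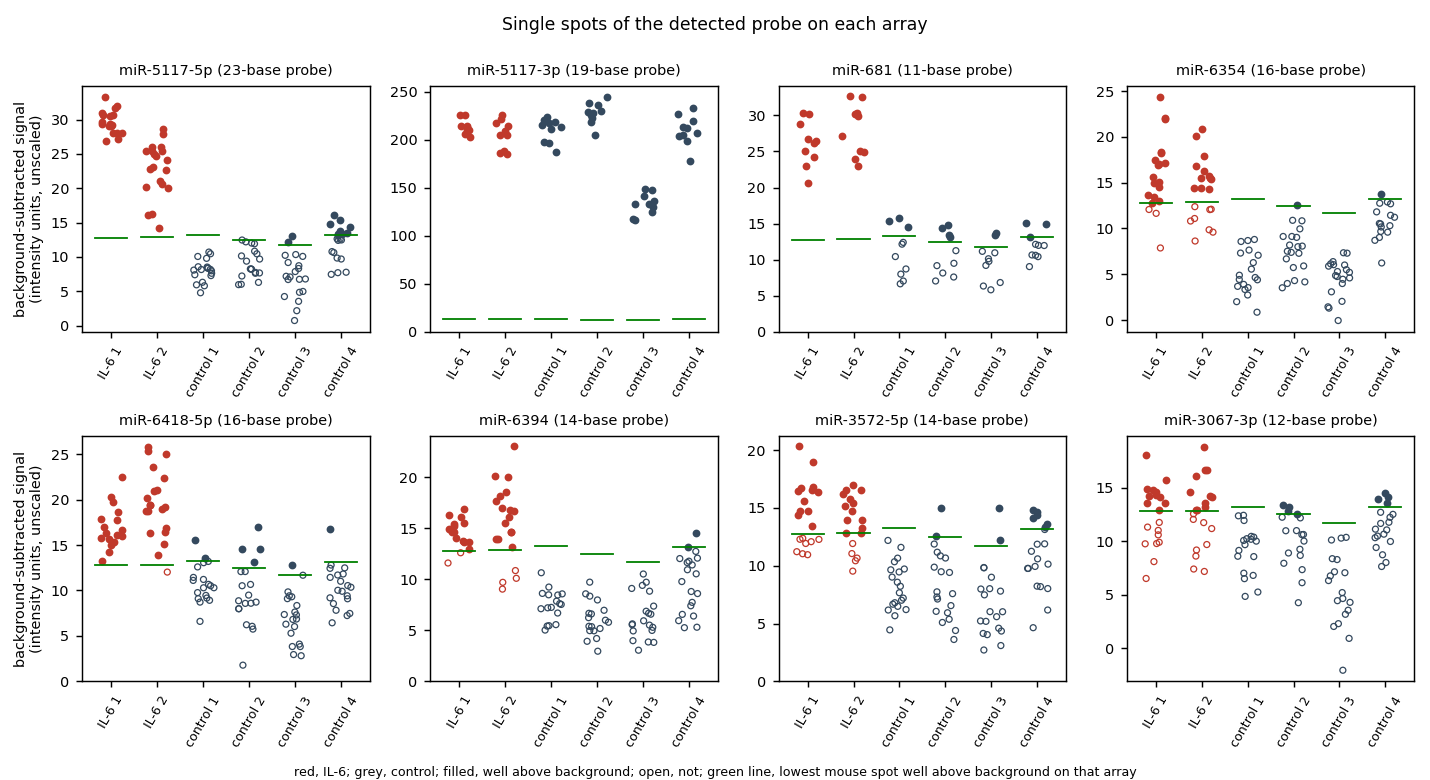
Background-subtracted signal of each usable spot of the detected probe (for miR-5117-3p, its 19-base probe) on the 2 IL-6 arrays (red, left) and 4 control arrays (grey, right), before scaling, with spots well above background filled and the lowest such mouse spot of each array as a green line. IL-6 spots of miR-5117-5p and miR-681 stand apart from nearly all control spots, whereas those of miR-3572-5p and miR-3067-3p lie across the line.

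The arrays differed in brightness, which bears on all of these values. The 75th percentile of the 502 probes detected on every array was 440 and 369 on the IL-6 arrays, against 347, 396, 248 and 343 on the controls. A probe could be detected down to almost the same unscaled signal on every array, 11.2 to 11.8. After scaling, this limit was 9.43 and 11.4 on the IL-6 arrays, against 11.9, 10.4, 16.2 and 11.7 on the controls. The share of mouse spots above background was 21.7% and 21.2% on the IL-6 arrays and 19.1% to 20.9% on the controls, and detected miRNAs numbered 313 and 300 on the IL-6 arrays, against 284, 294, 268 and 287 on the controls. All arrays lay on 1 slide, with the IL-6 arrays in its second row and the controls in its first, so that row and IL-6 cannot be told apart.

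After scaling, the leading probe of 6 of the 7 chosen miRNAs was still higher on both IL-6 arrays than on all controls, as were 10.5% of all mouse probes. That of miR-5117-5p averaged 23.1 ± 1.44 on IL-6 arrays (SD, n = 2) and 9.86 ± 2.08 on control arrays (SD, n = 4), and that of miR-681 averaged 24.2 ± 4.12 on IL-6 arrays and 11.9 ± 1.77 on control arrays. miR-6418-5p averaged 16.3 ± 3.58 on IL-6 arrays and 10.2 ± 1.03 on controls, and miR-6394 averaged 13.4 ± 2.26 on IL-6 arrays and 8.10 ± 1.98 on controls. The control spread was widest for miR-6354 among these 6, with 13.3 ± 0.56 on IL-6 arrays and 7.48 ± 2.53 on controls, and miR-3572-5p averaged 12.5 ± 1.12 on IL-6 arrays and 9.33 ± 1.68 on controls. miR-3067-3p was the exception, at 10.1 and 12.3 on the IL-6 arrays, against 9.42, 9.13, 7.82 and 11.7 on the controls.

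**Figure D3:**
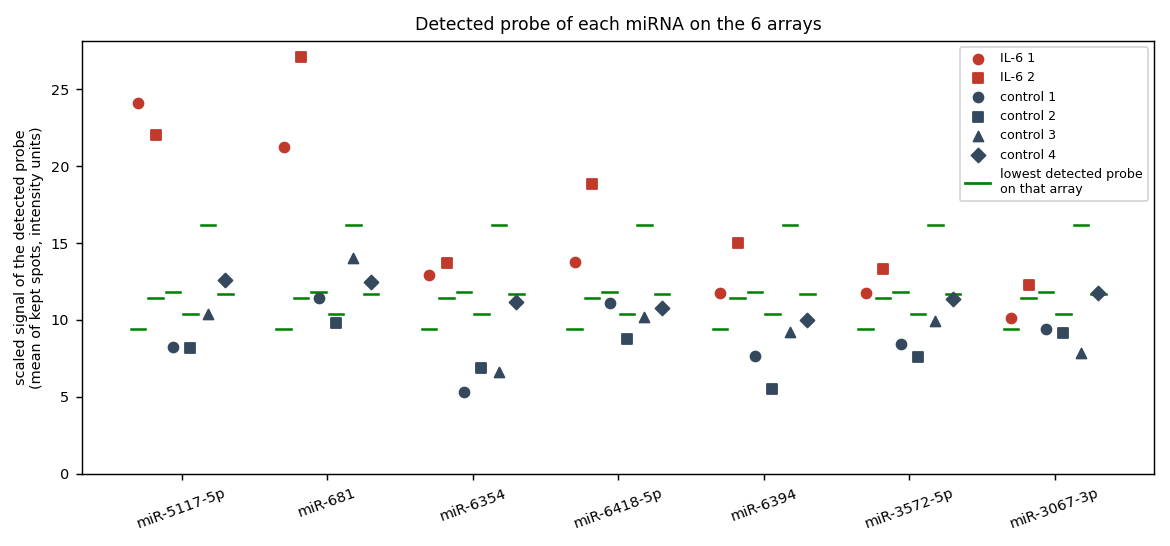
Scaled mean signal (linear axis, intensity units) of the detected probe of each chosen miRNA on the 2 IL-6 arrays (red) and 4 control arrays (grey), with the lowest detected probe signal of each array as a green bar. On control array 3 that limit is 16.2, above the scaled IL-6 signal of several of the miRNAs, and on IL-6 array 1 it is 9.43.

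The undetected probes read the same strands on the same arrays and are not independent of the detected probes. Scaled, 11 of the 16 probes of the 7 miRNAs were higher on both IL-6 arrays than on all controls, 5 of them among the 9 undetected probes. The background for this count was 10.5% of all 3105 mouse probes. Unscaled, the count was 15 of 16, with a background of 13.4%. Both counts include the 7 leading probes that detection on these arrays chose, so nothing is read from them. The 22-base probe of miR-5117-5p, below background throughout, had scaled signals of 4.4 and 4.0 on the IL-6 arrays, against 2.24, 2.17, 3.47 and 1.99 on the controls.

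The value of a whole miRNA is the average of all its probes, in which dim probes count equally, with values under 6.25 set to that floor. miR-5117-5p had a log2 signal of 3.77 ± 0.09 on IL-6 arrays and 2.74 ± 0.11 on control arrays, a difference of 1.03 (SD, n = 2 and 4, here and below), with 2 controls at the floor. miR-6418-5p had 3.49 ± 0.32 on IL-6 arrays and 2.78 ± 0.17 on controls (difference 0.71, 2 controls at the floor), and miR-681 had 3.36 ± 0.32 on IL-6 arrays and 2.66 ± 0.04 on controls (difference 0.69, 3 controls at the floor). miR-6394 had 3.43 ± 0.26 on IL-6 arrays and 2.90 ± 0.22 on controls (difference 0.53, 1 control at the floor). miR-6354 had 2.90 ± 0.06 on IL-6 arrays, with all 4 controls at the floor of 2.64 (difference 0.26).

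miR-3572-5p had 3.54 ± 0.11 on IL-6 arrays and 3.12 ± 0.26 on control arrays (difference 0.42), and miR-3067-3p had 3.41 ± 0.18 on IL-6 arrays and 3.20 ± 0.16 on control arrays (difference 0.21). In both of these, control array 4 lay above IL-6 array 1 and the groups overlapped. The groups did not overlap in 5 of the 8 miRNAs, against a background of 13% of the 299 tested miRNAs in which both IL-6 arrays were above all controls. The median difference of the 8 was 0.48, against -0.02 over the 299. Since detection chose 7 of them, nothing is read from this contrast.

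Not being well above background on the controls, the 7 have only bounded folds, computed against the higher of each control array's lowest detected signal and the probe's own signal. By the lower of this bound and the fold of the whole miRNA, miR-5117-5p was at least 1.83-fold and miR-681 at least 1.62-fold higher on the IL-6 arrays. miR-6418-5p was at least 1.30-fold higher, miR-6354 and miR-6394 at least 1.08-fold, and miR-3572-5p at least 1.01-fold. The bound for miR-3067-3p was below 1, so no fold is given. These bounds hold for the main processing only and leave out the spread between arrays. Under some other settings the differences were smaller, so "at least" does not cover those.

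Slide columns 3 and 4 each held an IL-6 array and a control array, which allows a comparison within a column. Within them the log2 difference was 1.04 and 0.84 for miR-5117-5p, 0.49 and 0.85 for miR-681, 0.62 and 0.88 for miR-6418-5p and 0.21 and 0.50 for miR-6394. It was 0.37 and 0.16 for miR-3572-5p and 0.26 and 0.14 for miR-3067-3p. For miR-6354, whose controls were all at the floor, it was 0.22 and 0.30. miR-5117-3p differed by -0.17 and -0.11. Each column value rests on 1 array per group.

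limma, fitted across all 299 tested miRNAs, called 1 miRNA higher with IL-6 at an adjusted p below 0.05 (0.334%, against 32 at an unadjusted p under 0.05) and 0 lower (0%, against 36). The 7 chosen miRNAs are part of this fit, and the 1 miRNA called higher was among them. Because the same contrast chose them, this call is no test of IL-6, and no other outcome for them is given. Without control array 4 the fit called 23 higher and 8 lower, without IL-6 array 1 it called 5 higher, and without IL-6 array 2 it called 3 higher. In simulated data with the spread of these 299 miRNAs, 81% of miRNAs given a 1.5-fold change and 96.5% of those given a 2-fold change were called. The simulated noise was independent between miRNAs and arrays, without the floor or differences in array brightness. These shares therefore cannot say how many real changes were missed on these arrays.

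The description "detected only with IL-6" depended on the definition of detection. Over all 1247 miRNAs, 10 (0.802%) were detected on both IL-6 arrays but on none of the controls, namely the 7 and miR-3061-5p, miR-3075-5p and miR-5118. By the scanner software's own call per miRNA, all 7 were detected on both IL-6 arrays, but 0 of 7 were undetected on all controls. That call found 3, 5, 1 and 7 of the 7 on control arrays 1 to 4. It placed miR-681 on all 4 controls, miR-6418-5p and miR-3067-3p on 3, miR-5117-5p and miR-3572-5p on 2, and miR-6354 and miR-6394 on 1. A different 8 miRNAs (0.642%) met the rule by the software's call, none of them a member, and miR-3075-5p and miR-5118 met it by both definitions.

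At the edge of the rule, the lowest IL-6 share among the members was 55% (miR-3067-3p) and the highest control share was 45% (miR-5117-5p on control array 4). Just outside it, miR-30c-1-3p and miR-1940 were detected on both IL-6 arrays and on control array 4, at 66.7% and 60% of spots, and miR-5116 on control array 2, at 57.9%. Control array 4 again held the highest control signal, averaged over probes and scaled, for 6 of the 7 members, and IL-6 array 2 exceeded IL-6 array 1 for 6 of 7.

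Across the 6 arrays the 7 chosen miRNAs moved alike, with Pearson's r of their scaled signals between 0.56 and 0.97 over 21 pairs and a median of 0.86. miR-5117-3p had r of -0.77 to 0.07 with them. These points share their arrays, scaling and the group difference that chose the members, and r is given as a description. The 5 other tested miRNAs most like miR-5117-5p were miR-669c-3p (r = 0.986), miR-669p-3p (0.986), miR-466h-3p (0.984), miR-706 (0.982) and miR-466i-3p (0.979). Their log2 differences were 0.86 to 1.05, against 1.03 for miR-5117-5p. They were brighter, with control means of 3.29 to 5.06 against 2.74, and none of them met the detection rule. The most similar miRNA was miR-709 for miR-6418-5p (0.991), miR-5109 for miR-3572-5p (0.992), miR-705 for miR-3067-3p (0.985), miR-5107-5p for miR-681 (0.984), miR-1940 for miR-6354 (0.980) and miR-3061-5p for miR-6394 (0.967). For miR-5117-3p it was miR-5621-5p (0.990), which had a log2 difference of -0.38.

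The longest stretch of sequence that each member shared with another miRNA detected on any array was also measured. miR-5117-5p, read from its longest probe, shared 7 bases with miR-5121, whose log2 difference was 1.64 (7.56 on IL-6 arrays and 5.93 on control arrays), and with miR-7a-5p. miR-681 shared GCAGGCAG, 8 bases that its probes cover, with miR-3102-5p.2-5p, whose difference was 0.15. miR-3572-5p shared GGGCAAGG, also 8 bases, with miR-500-3p (difference -0.08) and miR-503-5p. Between members, miR-6354 and miR-3067-3p shared UGCCCUGGG, 9 bases at the 5′ end of miR-6354, and miR-3067-3p shared CUGGGAGAGG, 10 bases, with miR-30c-1-3p. Whether such shared stretches bear on the signal of a probe was not tested.

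The opposite arms of 3 members were also on the array. miR-3067-5p, miR-3572-3p and miR-6418-3p were detected on 0 of the 6 arrays, with 0 of 80, 0 of 76 and 0 of 74 spots above background on the IL-6 arrays and 0 of 151, 0 of 159 and 0 of 148 on the controls. By name, 5 of the 8 members carry numbers of 5000 or above and under 7000, as do 177 of the 1247 array miRNAs (14.2%). The 36 tested miRNAs so numbered had a median difference of 0.19, against -0.02 over all 299 tested miRNAs. In 9 of the 36 both IL-6 arrays were above all controls, against 39 of the 299 (13%). The 36 include 4 of the miRNAs chosen by detection, and these 4 are among the 9. Because the same contrast chose these 4, nothing is read from the numbering.

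Of the miRNAs taken as cell type markers, 5 of 5 for adipocytes were detected on all 6 arrays. Their summed scaled signals were 3606 and 3610 on the IL-6 arrays and 3791 to 4331 on the controls. miR-143-3p (563 and 527 on IL-6 arrays, 669 to 785 on controls), miR-378a-3p and miR-30a-5p were lower on both IL-6 arrays than on all controls. The brightest, miR-103-3p, and miR-193b-3p overlapped between the groups. Without arrays of uninduced cells, detection does not show how far the cells had differentiated. Of 16 markers of muscle, blood, neural, liver, epithelial and endothelial cells, 15 were detected on no array, and miR-205-5p, an epithelial miRNA, was detected on all. The summed epithelial signal was 74.1 to 81.5 on the IL-6 arrays and 69.5 to 78.3 on the controls, and its part in the members' values was not tested. In bulk RNA such as this, fewer cells of a type and less of a miRNA per cell cannot be told apart.

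**Figure D4:**
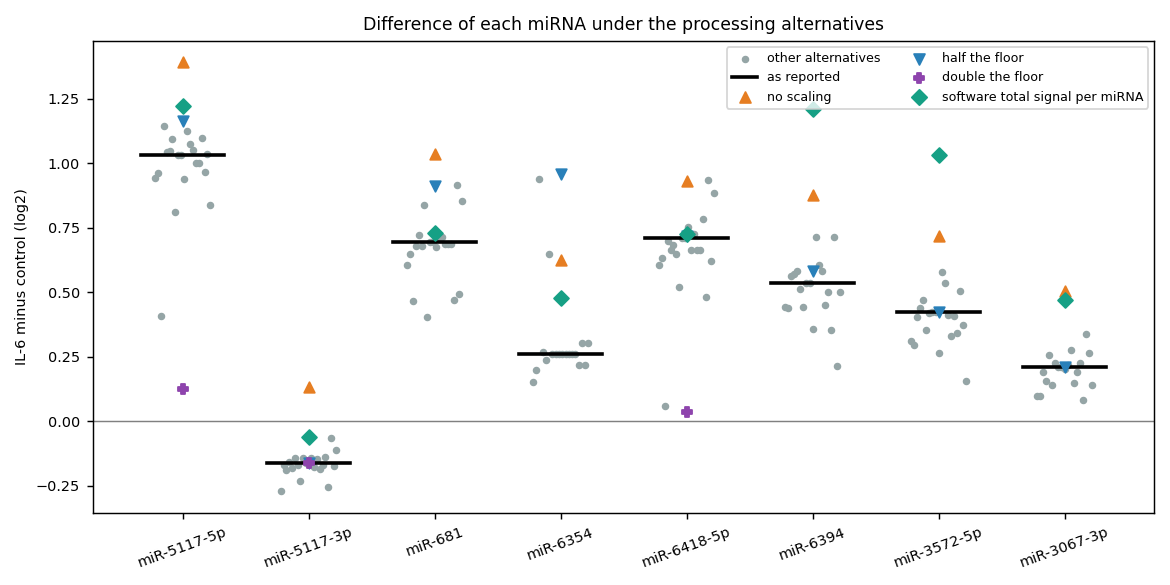
IL-6 minus control log2 difference of each of the 8 miRNAs as reported (black bar) and under each processing alternative that gave a value (points), with the scaling, floor and total-signal alternatives picked out by symbol. All values of the 7 chosen miRNAs lie above 0, between 0.04 and 1.39, which their choice and the floor favour. miR-5117-3p lies below 0 except without scaling, at 0.13.

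The differences of the 7 chosen miRNAs changed in size with the processing. Over 158 values of the 7 chosen miRNAs under other settings, 132 stayed within the spread between replicates, 26 moved beyond it and 0 changed sign, as the plot of differences under each alternative shows. The settings without a detection filter or without the mean trend alter only the test, so their differences for all 7 stayed as reported by construction. The constant sign is no test, because the 7 were chosen by detection on the IL-6 arrays only. A control at the floor also cannot lie above an IL-6 array. Leaving out the scaling moved 6 of the 7 and the software's total signal moved 5, the highest counts. Among the members that kept a value, doubling the floor moved 2 of 2 and the brightest probe moved 2 of 3. The difference of miR-5117-5p ranged between 0.12 and 1.39, that of miR-681 between 0.40 and 1.04, and that of miR-6418-5p between 0.04 and 0.93. miR-6394 ranged between 0.21 and 1.21, miR-3572-5p between 0.16 and 1.03, miR-6354 between 0.15 and 0.96, and miR-3067-3p between 0.08 and 0.50. In 17 further cases both IL-6 arrays fell to the floor and no difference could be had, among them all 7 after normexp background correction.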

How the data were processed

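Intensity values were read by the authors with Agilent Feature Extraction 10.10.1.1, per the file headers, with a fitted background subtracted, so that dim spots can be negative. The deposited spot flags, coded 0 or 1, mark spots well above background and uneven or outlying spots. In the deposited series table, intensity values were linear and equal to the scanner software's total signal per probe (largest difference 0), with column medians of 0.0727 and 0.117 for IL-6 and 0.0937, 0.104, 0.0777 and 0.0781 for control, not log-transformed or centred. Any later normalization by the authors is not given here.

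Uneven and outlying spots were dropped and the rest averaged per probe. Arrays were scaled by the 75th percentile of the 502 probes detected on all 6. Probes of a miRNA were averaged, floored at 6.25 (the highest of the arrays' lowest detected miRNA signals) and log2-transformed. The 299 miRNAs detected on all 4 controls or both IL-6 arrays were fitted with limma 3.58.1 in R 4.3.3 (lmFit and eBayes with trend, two-sided, Benjamini-Hochberg, threshold 0.05), checked on simulated data. Errors beside means are SDs. No spot was saturated, and no spot had equal values on 2 arrays. The number of arrays limits the precision.

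The members and lists were chosen with earlier results of these data known. All 8 members are named, with every other miRNA meeting the detection rule, those just outside it, and the most similar ones. The files' probe positions of the 3 minus-strand members (0 of 3 inside the RefSeq position, against 3 of 3 on the plus strand) were not used. For miR-5117, the files' last mapping was taken, which for miR-3067-3p fell inside its GRCm38 position.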

Additional observations from a re-analysis of the deposited data

Results flagged for a closer look

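Of 31 sets of 4 control values that were examined, 28 of the members and 3 of whole arrays, 2 (both of members) held a control array that stood apart from the other 3 by Dixon's criterion, and chance gives about 1 in 20. The scaled signal of miR-6354, averaged over its probes, was 7.25 and 7.71 on the IL-6 arrays, against 3.36, 3.41, 3.30 and 5.85 on control arrays 1 to 4, so control array 4 stood apart, still below the floor of 6.25. The scaled signal of the 22-base probe of miR-5117-5p was 4.4 and 4.0 on the IL-6 arrays, against 2.24, 2.17, 3.47 and 1.99 on the controls, so control array 3 stood apart.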

How the results depend on the processing

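The rule that chose the members depended on the definition of detection: with a detection share of 0.25, 4 of the 7 met it (miR-6354, miR-6418-5p, miR-6394 and miR-3067-3p), with 0.75 a different 4 (miR-5117-5p, miR-681, miR-6418-5p and miR-6394), and with the software's call 0. The number of the 8 higher on both IL-6 arrays than on every control was 5, and became 0 with normexp, 1 with the floor doubled and 2 with the brightest probe per miRNA, where members fall to the floor by construction. Leaving out single arrays gave 5 to 7 (7 without control 4 or without IL-6 1).

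The count of miRNAs called higher by limma, 1, became 34 without scaling, 7 with the floor halved, 3 with the software's total signal and 2 with scaling over all mouse probes or the brightest probe. It was 0 with normexp (6 at an unadjusted p under 0.05), the series table (28, an alternative added after seeing the data), a detection share of 0.25 (30), no detection filter (29, fitted without the trend), the slide column as a block (34) and the replicate block (36). Without single arrays it ranged between 1 and 23, and the count of lower ones, 0, between 0 and 8; the extremes, 23 higher and 8 lower, came without control 4, and the count was 3 without IL-6 2 and 5 without IL-6 1. The cause of these shifts was not tested. The difference of miR-5117-3p was 0.13 without scaling, and -0.25 to -0.07 without single arrays.

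Arrays of the same number share only a number: the deviations of the 2 such pairs correlated at r = -0.33, and with the replicate block the difference of miR-5117-3p was -0.18.

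All 7 chosen miRNAs lie near the detection limit, so signal over background sets what can be said of them. With 2 IL-6 arrays, 1 array decides much of each mean. The slide row cannot be told apart from IL-6.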
